A study of Mus musculus with 12 samples.

Results

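The genes described here are 10 genes of endoplasmic reticulum (ER) folding and of the unfolded protein response, taken as a list by gene name: the chaperones Hspa5, Hsp90b1 and Calr, the co-chaperone Dnajb9, the disulfide isomerase Pdia4, the degradation factor Herpud1, the transcription factors Xbp1, Atf4 and Ddit3, and the glutathione-degrading enzyme Chac1. They had 14 probes among the 41174 non-control probes of the array, and were 10 of the 17016 genes that a probe could be matched to. RNA of islets cut by laser from frozen pancreas was measured in 6 NOD mice, which develop autoimmune diabetes, and in 6 NOD.B10 mice, which served as healthy controls and carry another major histocompatibility haplotype on the NOD background. All mice were female and 12 weeks old, with 1 mouse per array and sections of many islets pooled for each mouse. Islet RNA was amplified and labelled with Cy5, and a commercial universal mouse RNA, also amplified, was labelled with Cy3 on every array as the common reference. A level is therefore the log2 ratio of islet Cy5 to reference Cy3, and a difference is the mean of the NOD arrays minus the mean of the NOD.B10 arrays.

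Secretory cells fold their products in the ER. When unfolded protein accumulates there, the sensors IRE1, PERK and ATF6 are freed from BiP, the product of Hspa5: IRE1 splices Xbp1 mRNA, PERK slows translation but lets Atf4 mRNA be translated, and ATF6 is cut to release a transcription factor. Chaperone, degradation and amino acid genes then rise, and prolonged signalling through ATF4 induces Ddit3 (CHOP) and its target Chac1. Beta cells make insulin in large amounts and depend on this pathway. The probes report mRNA amounts, not splicing of Xbp1, translation of Atf4 or cleavage of ATF6.

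The upstream sequences below are shown because the classical DNA elements of the pathway lie there in some of the genes and not in others, including the genes that passed the strain test. Each is the 250 bases before the annotated start in RefSeq on mouse assembly GRCm38.p6, written 5′ to 3′ on the strand of the gene, and all 10 genes had an entry. Capitals mark the fixed letters of the ER stress response element ERSE (CCAAT followed, after 9 bases of any kind, by CCACG), of ERSE-II (ATTGG followed, after 1 base of any kind, by CCACG) or of TGATGNAA (an element bound by ATF4 and C/EBP factors), on either strand.
Hspa5, chr2:34771840-34772089, plus strand: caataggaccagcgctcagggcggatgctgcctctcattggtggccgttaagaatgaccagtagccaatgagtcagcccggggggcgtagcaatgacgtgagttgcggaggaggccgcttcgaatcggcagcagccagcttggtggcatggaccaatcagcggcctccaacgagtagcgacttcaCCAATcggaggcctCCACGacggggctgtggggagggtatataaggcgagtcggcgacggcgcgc
Hsp90b1, chr10:86705445-86705694, minus strand: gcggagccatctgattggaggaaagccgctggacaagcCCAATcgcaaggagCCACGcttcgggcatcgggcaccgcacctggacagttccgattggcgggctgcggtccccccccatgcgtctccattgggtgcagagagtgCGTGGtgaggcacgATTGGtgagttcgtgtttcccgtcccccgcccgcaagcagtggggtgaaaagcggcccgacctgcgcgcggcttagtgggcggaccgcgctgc
Calr, chr8:84846932-84847181, minus strand: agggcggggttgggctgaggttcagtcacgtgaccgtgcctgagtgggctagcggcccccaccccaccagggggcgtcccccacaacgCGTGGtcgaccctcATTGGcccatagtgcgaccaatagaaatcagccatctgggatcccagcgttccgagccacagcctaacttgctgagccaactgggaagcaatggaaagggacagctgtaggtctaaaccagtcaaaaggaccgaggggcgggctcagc
Herpud1, chr8:94386179-94386428, plus strand: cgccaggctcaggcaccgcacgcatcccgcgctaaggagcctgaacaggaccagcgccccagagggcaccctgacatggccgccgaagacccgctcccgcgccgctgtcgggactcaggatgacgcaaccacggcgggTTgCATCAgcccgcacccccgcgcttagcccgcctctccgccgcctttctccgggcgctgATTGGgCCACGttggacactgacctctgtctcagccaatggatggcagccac
Chac1, chr2:119350992-119351241, plus strand: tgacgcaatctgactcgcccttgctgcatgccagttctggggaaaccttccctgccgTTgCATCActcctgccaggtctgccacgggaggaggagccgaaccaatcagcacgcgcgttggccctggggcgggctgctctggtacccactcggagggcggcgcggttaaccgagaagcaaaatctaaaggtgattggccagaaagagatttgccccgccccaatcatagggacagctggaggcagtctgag
Dnajb9, chr12:44210069-44210318, minus strand: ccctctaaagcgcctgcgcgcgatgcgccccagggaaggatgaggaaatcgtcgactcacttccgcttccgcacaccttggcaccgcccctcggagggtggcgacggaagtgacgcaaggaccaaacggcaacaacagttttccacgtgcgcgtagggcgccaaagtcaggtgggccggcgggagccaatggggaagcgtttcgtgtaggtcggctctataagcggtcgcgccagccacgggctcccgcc

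ERSE letters were found in 3 of the 10 genes: Hspa5, from 65 to 47 bases before the start, Calr, from 162 to 144, and Hsp90b1, with a copy from 212 to 194 and another from 107 to 89. The same letters occurred in 37 of 32851 promoters of this length (0.113%). ERSE-II letters were found in Herpud1, from 52 to 42 bases before the start, and in 0.0304% of all promoters. TGATGNAA occurred in Chac1, from 193 to 186 bases before the start, and in Herpud1, beginning 112 bases before the start, against 3.45% of all promoters. TGACGTGG, the element named UPRE, was in 0 of the 10 and in 0.563% of all promoters. The short parts CCAAT and CCACG, read on either strand, lie inside ERSE and ERSE-II, and by themselves occurred in 9 and 7 of the 10 genes and in 33.8% and 28.3% of all promoters. A match of letters describes the window and is not a binding site. The genes were listed by name as members of the pathway that these elements belong to. The shares are thus a description, and no enrichment was tested.

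Of the 10 genes, 6 had a probe whose islet signal the scanner marked as well above background on 4 or more arrays, and these were tested: Hspa5, Hsp90b1, Calr, Dnajb9, Chac1 and Herpud1. Of these 6, 0 were called higher and 3 were called lower in NOD islets (Calr, Dnajb9 and Chac1; adjusted p under 0.05 in limma, over 3920 genes). Calr passed the filter through its NOD arrays alone and was at background on all NOD.B10 arrays, so that the size of its difference is not known. Over all 3920 genes, 18.8% were called higher and 18.1% lower. The values of the strains overlapped for all 6, while 16.9% of all genes had no overlap. The median difference was -0.29 over the 6 genes and -0.01 over all genes. Since every sample is a mixture of cells, a change in the share of any cell type and a change of RNA per cell cannot be told apart. Arrays differed in brightness by strain: the share of spots with Cy5 well above background was 14.0% ± 2.55 on NOD arrays and 6.21% ± 1.37 on NOD.B10 arrays (SD, n = 6 each; exact 2-sided permutation p = 0.00216, the smallest possible), while the reference channel gave 50.4% and 50.1% (exact p = 0.781).

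**Figure D1:**
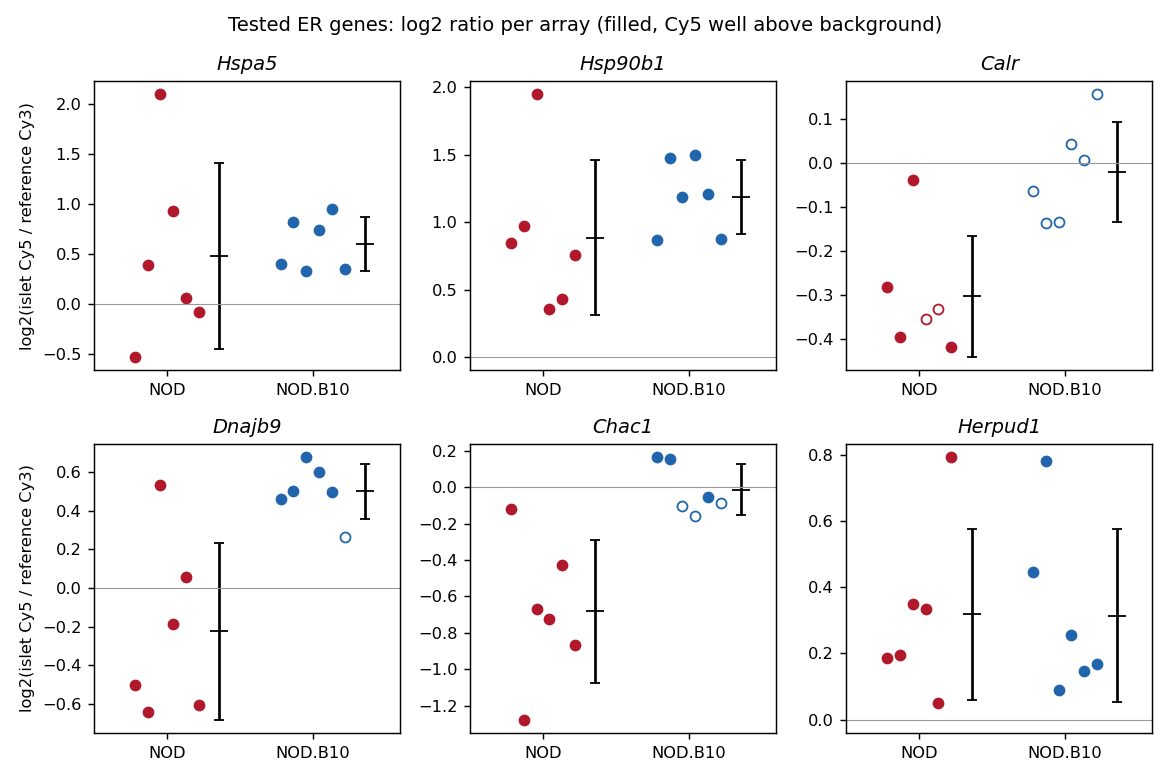
Log2 ratio of islet Cy5 to reference Cy3 for the 6 tested genes, 1 point per array with NOD left and NOD.B10 right, mean ± SD beside the points, and open points where Cy5 was not well above background. In every panel the strains overlap, and for Calr, Dnajb9 and Chac1 5 of the 6 NOD arrays lie below the lowest NOD.B10 array.

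Hspa5, the ER Hsp70 chaperone BiP, had log2 ratios of -0.53, 0.23 and 2.10 (lowest, median and highest) in NOD islets and 0.34, 0.57 and 0.96 in NOD.B10 islets. The NOD values spanned the NOD.B10 values on both sides, and NOD replicate 3 was the highest. The difference was -0.12 ± 0.35 (SE; adjusted p = 0.823, limma).

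Hsp90b1, the ER Hsp90 chaperone GRP94, had log2 ratios of 0.36, 0.80 and 1.95 in NOD islets and 0.87, 1.20 and 1.50 in NOD.B10 islets. Of the NOD arrays 4 lay below the lowest NOD.B10 array and replicate 3 lay above the highest. The difference of -0.30 ± 0.24 was not called (adjusted p = 0.345, limma), and its other probe, also bright on all arrays, differed by -0.36. Without NOD replicate 3 the difference was -0.51 and was called (adjusted p = 0.0220, limma).

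Calr encodes calreticulin, the calcium-binding lectin chaperone of the ER. Its log2 ratios were -0.42, -0.34 and -0.04 in NOD islets and -0.14, -0.03 and 0.16 in NOD.B10 islets, so that NOD replicate 3 alone reached into the NOD.B10 range. The strains passed the test (adjusted p = 0.0327, limma), but Cy5 was well above background on 4 NOD arrays and 0 NOD.B10 arrays. The NOD.B10 level is then only a bound: normalised Cy5 in NOD islets minus that bound was -0.20 on the log2 scale, which leaves no fold to give, and net Cy5 ran the other way, at 0.5 to 18 scanner units in NOD islets and 2 to 7 in NOD.B10 islets. The other Calr probe was dim on all arrays. The call was lost in 7 of the 12 fits that leave out an array (adjusted p up to 0.0742).

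Dnajb9, the BiP co-chaperone ERdj4, had log2 ratios of -0.64, -0.34 and 0.53 in NOD islets and 0.26, 0.50 and 0.68 in NOD.B10 islets. The NOD.B10 values were close together, 5 NOD arrays lay below all of them, and NOD replicate 3 lay within them. The difference was -0.72 ± 0.18 (adjusted p = 0.00807, limma), which is 1.65-fold lower in NOD islets, with Cy5 well above background on 6 NOD and 5 NOD.B10 arrays. The other 2 probes, dim on nearly all arrays, differed by -0.35 and -0.23. Of the called genes, Dnajb9 was also lower in net Cy5, with medians of 14.0 scanner units in NOD islets and 20.3 in NOD.B10 islets, although the NOD range of 9 to 40.5 enclosed the NOD.B10 range of 11 to 22.

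Herpud1, a membrane protein of ER-associated degradation, had log2 ratios of 0.05, 0.26 and 0.79 in NOD islets and 0.09, 0.21 and 0.78 in NOD.B10 islets. The ranges nearly coincided, and the difference was 0.00 ± 0.15 (adjusted p = 0.987, limma; 95% interval -0.31 to 0.32). Before any scaling, its net Cy5 was 49.5, 106 and 160 scanner units in NOD islets and 16, 27 and 49 in NOD.B10 islets, with no overlap. The same held for 40.5% of all genes, and mean net Cy5 was higher in NOD for 96.2% of them.

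Chac1, which degrades glutathione and lies downstream of ATF4 and CHOP, had log2 ratios of -1.28, -0.70 and -0.12 in NOD islets and -0.16, -0.07 and 0.17 in NOD.B10 islets. NOD replicate 1 reached into the NOD.B10 range and the other 5 NOD arrays lay below it. The difference was -0.67 ± 0.16 (adjusted p = 0.00662, limma), or 1.59-fold lower in NOD islets, with Cy5 well above background on 6 NOD arrays and 3 NOD.B10 arrays. Net Cy5 had medians of 14.8 scanner units in NOD islets and 12.3 in NOD.B10 islets. Chac1 was bright in the reference, with net Cy5 at 0.827% of net Cy3, and of the 756 genes under 1% in this share 69.0% were called lower and 3 genes higher. The share was 1.11% for Calr, in a class from 1% to 2% where 12.4% of 1173 genes were called lower, and 2.13% for Dnajb9, in a class from 2% to 5% where 2.33% of 1371 were. The part of this share in the differences was not tested. Dnajb9 and Chac1 were called lower in each of the 12 fits that leave out an array.

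**Figure D2:**
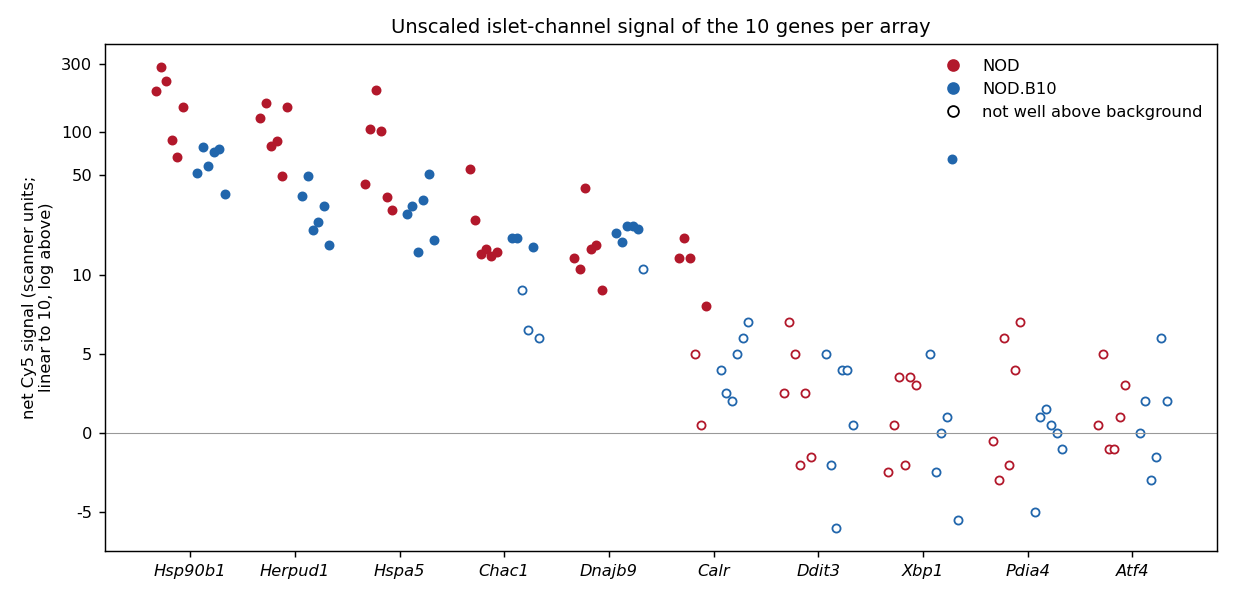
Net Cy5 signal (scanner units, local background subtracted and not scaled between arrays, axis linear to 10 and logarithmic above) of the 10 genes, NOD left of NOD.B10, 1 point per array and open where not well above background. Herpud1 separates the strains, and Ddit3, Pdia4 and Atf4 stay near 0 on all arrays, as does Xbp1 on all but NOD.B10 replicate 5 at 64.5.

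The other 4 genes could not be tested. Xbp1, the transcription factor that IRE1 activates by splicing, was well above background on 0 NOD arrays and 1 NOD.B10 array. Its log2 ratios were -0.26, -0.08 and 0.08 in NOD islets and -0.30, -0.06 and 2.12 in NOD.B10 islets, where replicate 5 alone stood apart. On that array the acinar cell markers averaged 5.23 on the log2 scale, against -0.17 to 3.01 on the other NOD.B10 arrays, and the part of acinar RNA in the Xbp1 value was not tested. Atf4, the factor translated under PERK, Ddit3 (CHOP) and Pdia4 were well above background on 0 of the 12 arrays. Their net Cy5 lay between -6.0 and 7.0 scanner units on all arrays. The reference channel was well above background on all 12 arrays for Xbp1, Atf4 and Pdia4 and on 0 for Ddit3, so for Ddit3 neither channel gave a signal. Even so, the reference was dim for Xbp1, Atf4 and Pdia4, with median net Cy3 of 36.25, 27 and 114 scanner units. The tested probes of the other 6 genes had medians of 632 to 4560. The lack of islet signal does not show that these mRNAs were absent.

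The calls depended on how the slides and the brightness of the arrays were handled. Slide 1 held NOD arrays and slide 4 held NOD.B10 arrays only, while slides 2 and 3 held both strains. With slide as a fixed term, 0 of the 6 genes were called, against 18.2% of all genes (9.21% higher and 9.03% lower). Chac1 then differed by -0.64 (adjusted p = 0.0732) and Dnajb9 by -0.51 (adjusted p = 0.0950), and Calr had an adjusted p of 0.0936 (limma). Within slide 2 the differences were -0.70 for Chac1 and -0.36 for Dnajb9, and within slide 3 they were -0.58 for Chac1 and -0.65 for Dnajb9. On either slide 0 of the 6 genes were called. Of all 3920 genes, 38 were called higher and 46 lower on slide 2, and 1 higher and 1 lower on slide 3. Without slide 4, whose scan day stood apart, the 3 genes called as reported were again called, beside 507 of all 3920 genes higher and 536 lower. With the share of bright spots as a covariate 0 of the 6 genes were called and 3 of all 3920, and Dnajb9 differed by 0.03. That share ran from 10.7% to 17.3% on NOD arrays and from 3.96% to 7.88% on NOD.B10 arrays. Since these ranges do not overlap, the fit cannot separate brightness from strain. With median centring in place of loess the median of all genes lay at 0.44, and 1986 of all 3920 genes were called higher and 0 lower. Beside these, Hsp90b1 (0.76, adjusted p = 0.0119) and Herpud1 (0.98, adjusted p = 0.00096 in limma) were called higher, and Dnajb9 was not called (-0.10). Over the 834 genes bright on every array, the ratio of net signals had a median of -0.28, and 1 of the 3 ER genes among them was called lower (Hsp90b1, -0.76, adjusted p = 0.0171, limma) beside 31.4% of these genes lower, 16.2% higher and 47.6% in either direction. Under median centring, relative to its median of all genes, Dnajb9 was at -0.54 and Chac1 at -0.18.

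**Figure D3:**
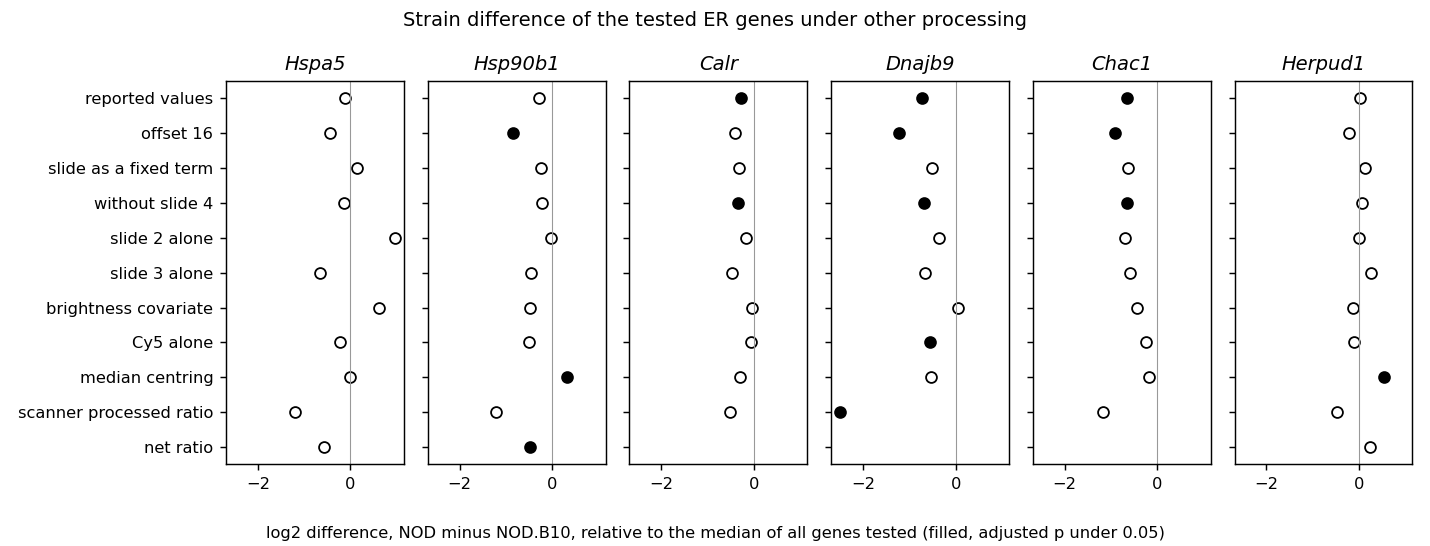
Log2 difference (NOD minus NOD.B10) of the 6 tested genes relative to the median of all genes tested, under the processing reported and 10 alternatives, filled where the adjusted p was under 0.05. Chac1 lies left of 0 wherever it was measured and Herpud1 between -0.47 and 0.54, while Hspa5 crosses 0 between alternatives.

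The insulin level of each array was taken as the mean log2 ratio of Ins1 and Ins2. It was 6.68, 8.79 and 11.1 in NOD islets (lowest, median and highest) and 10.4, 11.1 and 11.9 in NOD.B10 islets, so that NOD replicate 3 alone reached the NOD.B10 range. The mean difference was -2.55 (exact 2-sided permutation p = 0.00866, n = 6 each). Ins2 was 10.2-fold lower in NOD islets (-3.35 ± 0.56, adjusted p = 0.000639) and Ins1 3.37-fold lower (-1.75 ± 0.62, adjusted p = 0.0394; limma). Once slide was a fixed term Ins2 was still called (adjusted p = 0.00793) and Ins1 was not (-1.94, adjusted p = 0.121; limma). In the unscaled signal a difference was not detectable: net Cy5 of Ins2 had medians of 12062 scanner units in NOD islets and 13478 in NOD.B10 islets (exact permutation p = 0.649).

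Set against insulin on the same array, the 6 tested genes were higher in NOD islets. On this scale the insulin level of the array was subtracted from every gene, so each difference shifted by the insulin difference. The differences ran from 1.83 for Dnajb9 to 2.56 for Herpud1, each with an SE of 0.69 and adjusted p between 0.00045 and 0.0091 (limma). The SE was the same for each of the 6 genes, since limma pooled variances that share the same insulin values. The p-values and calls on this scale thus overstate the evidence and are not separate tests. The insulin difference itself had an exact permutation p of 0.00866. Of the 3918 tested genes other than insulin 95.8% were called higher on this scale and 0.051% lower, with a median difference of 2.55, and Hspa5 (2.43), Calr (2.27), Hsp90b1 (2.25) and Chac1 (1.89) lay below that median.

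Within strains, a relation to insulin was sought with strain in the model. None of the 6 genes had a called slope, against 0.255% of 3918 genes (10) called and 12.5% at an unadjusted p under 0.05. The slope was 0.25 ± 0.09 log2 per log2 of insulin for Hsp90b1 (unadjusted p = 0.0205, adjusted p = 0.308), 0.24 ± 0.16 for Hspa5 (0.579) and 0.14 ± 0.08 for Dnajb9 (0.528). It was 0.09 ± 0.04 for Calr (adjusted p = 0.410), 0.06 ± 0.08 for Chac1 (0.829) and -0.00 ± 0.07 for Herpud1 (0.999; limma). NOD replicate 3, with the highest insulin level of its strain, carried several of these values. Without it, the slope was 0.01 for Hsp90b1, -0.32 for Hspa5 and -0.08 for Dnajb9.

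**Figure D4:**
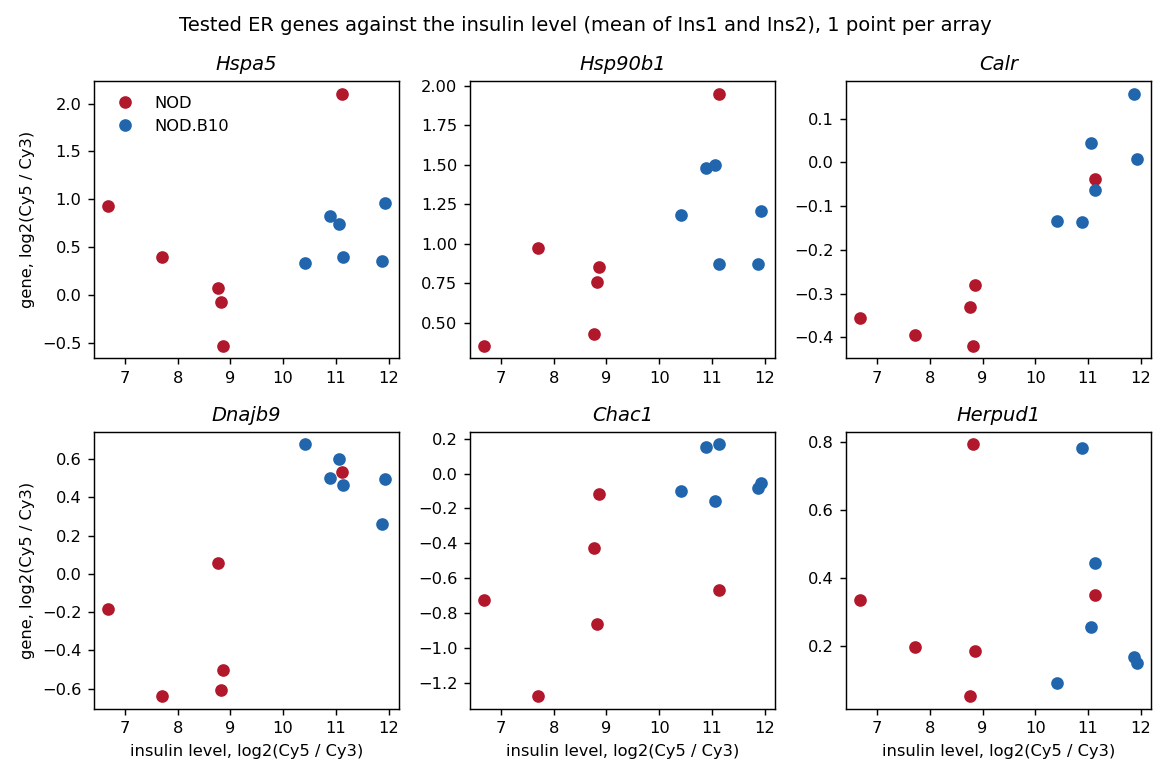
Log2 ratio of each of the 6 tested genes against the insulin level (mean log2 ratio of Ins1 and Ins2), 1 point per array, NOD in red and NOD.B10 in blue. The strains form separate clusters in insulin apart from NOD replicate 3 at 11.1, so no correlation over all 12 arrays is given.

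Correlations with insulin were computed within each strain over 6 arrays, for 6 genes in 2 strains, with exact permutation p adjusted over 3918 genes of that strain. In NOD islets Hsp90b1 had r = 0.828 (rho = 0.657, exact p = 0.0514, adjusted 0.623) and Calr r = 0.806 (rho = 0.600, exact p = 0.0792, adjusted 0.666). Without the 2 arrays farthest from the median insulin level, r was -0.578 for Hsp90b1 and 0.432 for Calr over 4 arrays. In NOD.B10 islets Calr had r = 0.780 (rho = 0.657, exact p = 0.0778) and Dnajb9 r = -0.766 (rho = -0.771, exact p = 0.0569), both with an adjusted p of 0.994, and without the 2 farthest arrays r was 0.624 and -0.773. The other 8 correlations lay between -0.384 and 0.619, all with adjusted p of at least 0.750. No gene of the 3918 passed in either strain, where an unadjusted exact p under 0.05 was reached by 7.63% in NOD islets and 4.03% in NOD.B10 islets.

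The 6 genes differed in how they followed Hspa5 over the arrays, which is given as a description. With strain means removed, Hspa5 correlated with Dnajb9 (r = 0.726), Hsp90b1 (0.660) and Calr (0.523) over the 12 arrays, and with Herpud1 at 0.089 and Chac1 at -0.252. These correlations share NOD replicate 3, the NOD array that was highest for 4 of the 6 genes and for 19.6% of all genes. The genes most like Hspa5 by this measure were Ubb, which encodes polyubiquitin (0.934), Alkbh6 (0.896), the thioredoxin-domain gene Txndc15 (0.894), Krtcap2, a subunit of the oligosaccharyltransferase (0.887), and Mrpl13, a mitochondrial ribosomal protein gene (0.870). Among them, Mrpl13 was well above background on 0 NOD.B10 arrays, and Alkbh6 and Txndc15 on 1 each. Dnajb9 ranked 70 and Hsp90b1 135 of 3919.

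Other genes of the pathway are to be read beside the 18.8% called higher and 18.1% called lower over all 3920 genes. Of 14 tested ER folding enzymes and co-chaperones, 2 were called higher and 0 lower, with a median of -0.05. Ppib, the ER cyclophilin, had log2 ratios of 1.97, 2.23 and 2.46 in NOD islets and 0.05, 0.90 and 2.07 in NOD.B10 islets (1.27 ± 0.26, adjusted p = 0.00252, limma), the highest NOD.B10 array reaching the NOD range. Erp29, an ER protein of the thioredoxin fold, rose by 0.59 ± 0.20 (adjusted p = 0.0314). Of 10 tested genes of ER-associated degradation, 0 rose and 2 fell in limma. These were the ubiquitin-conjugating enzyme gene Ube2j1 (-0.50 ± 0.15, adjusted p = 0.0174) and Derl2, of the retrotranslocation machinery (-0.36 ± 0.12, adjusted p = 0.0256). Ube2j1 was well above background on 6 NOD arrays but only 1 NOD.B10 array, so the size of its fall is uncertain.

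Of the UPR sensor genes only Traf2, an adaptor of IRE1 (0.11), and Mbtps1, the protease that cuts ATF6 (-0.04), could be tested among the 12 listed, and neither was called. Of 10 tested ATF4 and CHOP targets 2 were called higher and 3 lower, with a median of -0.16, beside the 18.8% and 18.1% of all genes. Ddit4, an inhibitor of mTORC1, rose by 1.08 ± 0.15 (adjusted p = 0.000228), and Phgdh, of serine synthesis, had log2 ratios of 0.04, 0.35 and 0.84 in NOD islets (adjusted p = 0.00838; limma). Phgdh passed the filter through its NOD arrays alone and was well above background on 0 NOD.B10 arrays, so its call followed in part from the filter and no size is given. Asns, asparagine synthetase, had log2 ratios of -0.79, 0.00 and 0.69 in NOD islets and 0.45, 0.74 and 1.31 in NOD.B10 islets and fell by 0.92 on the log2 scale (adjusted p = 0.0115). The alanyl-tRNA synthetase gene Aars was lower too (-0.70, adjusted p = 0.000618, limma). So was the lipoprotein receptor gene Vldlr (-0.64, adjusted p = 0.00291, limma), which was well above background on 5 NOD and only 2 NOD.B10 arrays. Of these, Ddit4, Aars, Vldlr, Phgdh and Asns were also called once slide was a fixed term (adjusted p between 0.00583 and 0.0474), and Ppib, Erp29, Ube2j1 and Derl2 were not (0.0506 to 0.324).

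None of 20 tested genes of ER translocation and glycosylation was called (median -0.12), the smallest p being those of Tram1 (-0.29, adjusted p = 0.0668) and Spcs2 (-0.29, adjusted p = 0.0946; limma). Once slide was a fixed term Spcs2 was called lower (-0.48, adjusted p = 0.0422; limma). Outside the ER, 4 of 12 tested cytosolic and mitochondrial chaperones were called lower and 0 higher, with a median of -0.29: Hsph1 (-1.03, adjusted p = 0.00101), Dnaja1 (-0.42, 0.00467), Hspa4 (-0.56, 0.0239) and Hspd1 (-0.40, 0.0461; limma). Once slide was a fixed term Hsph1 (adjusted p = 0.0206) and Dnaja1 (0.0134) were still called, and Hspa4 (0.0716) and Hspd1 (0.262; limma) were not. Over the 5 ER lists together 4 of 56 tested genes were called higher and 5 lower, beside 18.8% and 18.1% of all genes.

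Markers of other cells moved with strain, and their calls are to be read beside the 18.8% called higher and 18.1% called lower over all 3920 genes. Of 11 tested leukocyte markers 11 were called higher in NOD islets, with an average log2 ratio of 1.65 to 3.33 on NOD arrays and -0.23 to -0.06 on NOD.B10 arrays, where 6 of the 11 were on no array well above background and likewise passed the filter through NOD arrays alone. The 6 tested B and plasma cell markers were at background on all NOD.B10 arrays and passed the filter through NOD arrays alone, so that their calls are no count of support. They had summed net Cy5 of 409.5 to 2974.5 scanner units in NOD islets and 6 to 17.5 in NOD.B10 islets, and Cd79a, Pax5, Mzb1, Sdc1, Irf4 and Tnfrsf17 were well above background on no array. Of 10 tested acinar markers 6 were called lower, with averages of -2.28 to 1.20 in NOD islets and -0.17 to 5.23 in NOD.B10 islets. Of 7 tested beta cell markers 3 were called lower (median -1.53), and the beta cell genes Mafa, Pdx1, Slc30a8, Ucn3 and Glp1r were at background on all 12 arrays. NOD replicate 3 had the highest beta cell marker average of its strain (6.14) and a leukocyte average of 1.69, second lowest among the NOD arrays. The part of these cells in the differences of the ER genes was not tested.

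**Figure D5:**
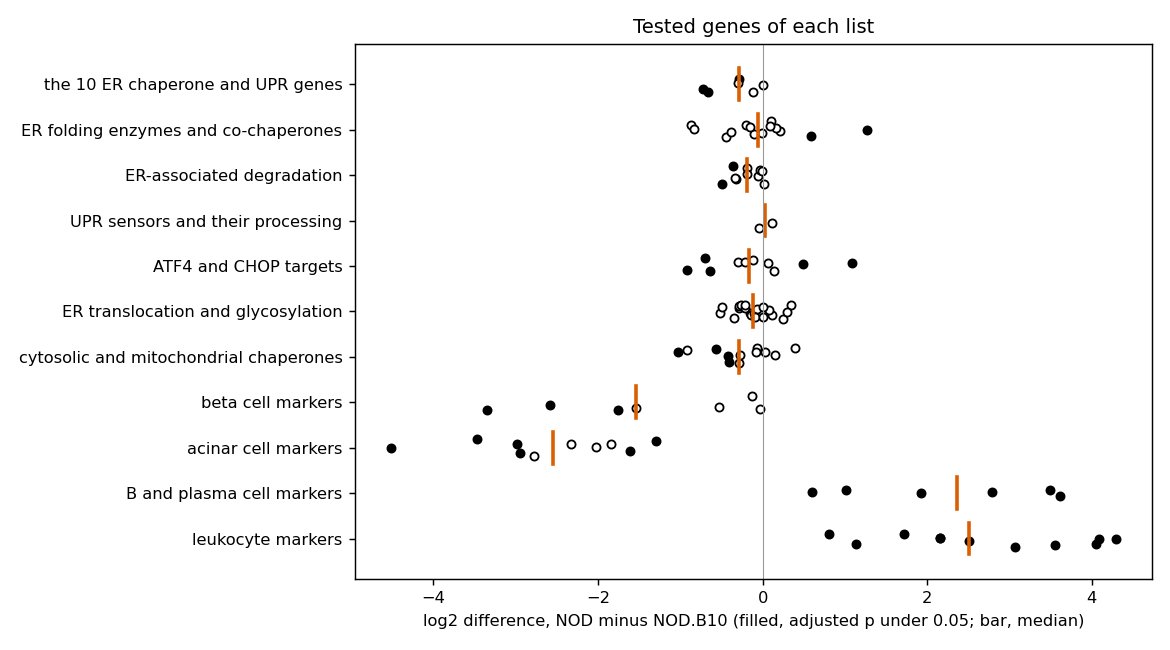
Log2 difference (NOD minus NOD.B10) of each tested gene of the 10 ER genes, 6 further chaperone and stress lists and 4 cell type lists, filled where the adjusted p was under 0.05, with a bar at the median of each list. The ER lists have medians between -0.29 and 0.03, against 2.36 and 2.51 for the B and plasma cell and leukocyte lists and -1.53 and -2.55 for the beta and acinar cell lists.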

How the data were processed

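Islet RNA of 6 NOD and 6 NOD.B10 mice (separate mice per the design text) was hybridised in Cy5 against a common reference in Cy3, with no dye swap. Scanner intensity values (median signal and local background of both channels) were deposited per array, unnormalised per the file headers, which name Agilent Feature Extraction 10.5.1.1. The same deposited files hold processed intensity values and their log10 ratio, background-subtracted and dye-normalised per the file headers. The deposited series table holds log2 values equal to processed Cy5 over Cy3 within 0.001 for 99.7% of entries.

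Background correction used normexp with an offset of 50, followed by loess for each array, in limma 3.58.1 (R 4.3.3), leaving out 1639 control spots, and spots flagged as outliers (160 to 250 per array) where another spot of the probe remained. No spot was saturated. Probes were named through their accession in a RefSeq table of GRCm38.p6 (24375 probes), and the brightest probe per gene was tested if the scanner marked its Cy5 as well above background on 4 or more arrays (3920 genes). Strains were compared with lmFit and eBayes and Benjamini-Hochberg adjustment over all genes at 0.05. The fits were tested on simulated data. Net Cy5 is median signal minus local background. Arrays carry no counts, so their number limits precision.

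The relation to insulin was fitted with strain and insulin as terms. Correlation p-values were adjusted over all genes of a strain, not over the gene list as planned. Genes named are the 10 listed genes, Ins1, Ins2, per list up to 4 called genes with the smallest p in each direction (2 where none was called), and the 5 genes most like Hspa5. Other markers are named for their detection. The 10 genes, the 11 lists and the tests were chosen with earlier results of these data known. Comparing genes relative to insulin was chosen after seeing the data. Classes by Cy5 share of Cy3 were too. Alternatives were other normalisations, offsets, filters, slide terms, array weights, a brightness covariate and leaving out each array. Replicate numbers did not pair the mice: correlations of deviations ran from -0.147 to 0.212.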

Additional observations from a re-analysis of the deposited data

Results flagged for a closer look

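The Calr level on NOD replicate 3 stood apart from the other NOD arrays, at -0.039 against -0.42 to -0.28. The Xbp1 level on NOD.B10 replicate 5 stood apart likewise, at 2.12 against -0.30 to 0.15 on the other NOD.B10 arrays. In both cases the gap to the nearest array exceeded Dixon's 95% critical value for 6 samples, which chance passes in about 1 of 20 groups. The Xbp1 probe was well above background on that array only.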

How the results depend on the processing

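The number of calls varied with the processing, and the number of arrays and the dim islet signals limit it. Of the 10 genes, 0 were called higher and 3 lower as reported, and of the 5 ER lists 4 genes were called higher and 5 lower. The number called lower among the 10 genes was 1 with the scanner's processed ratio, with Cy5 alone and with the net ratio, and 0 with a filter on all 12 arrays, and likewise 0 with slide as a fixed term, slide 2 alone, slide 3 alone or the brightness covariate. The gene called was Dnajb9 with the processed ratio (-2.01, adjusted p = 0.0209 in limma) and with Cy5 alone (-0.47, adjusted p = 0.00294 in limma). With offset 16, 3 of the 10 genes were called lower: Dnajb9 (-1.27), Chac1 (-0.97) and Hsp90b1 (-0.89, adjusted p = 0.0166 in limma). Calr was then not called (adjusted p = 0.0652 in limma). The filter on all arrays and the net ratio tested only Hspa5, Hsp90b1 and Herpud1 of the 10, so the calls of Calr, Dnajb9 and Chac1 were not put to them, and the call under the net ratio was Hsp90b1. With median centring 2 of the 10 genes were called higher and 0 lower, and 31 genes of the ER lists higher and 0 lower. Relative to insulin, 6 of the 10 genes and 56 of the ER lists were called higher and 0 lower. These calls are not separate tests, since the same insulin values enter every gene. Genes of the ER lists called higher numbered 2 with the net ratio, offset 16, the filter on all arrays or slide as a fixed term, and 0 on slide 2 alone, on slide 3 alone or with the brightness covariate. Genes of the ER lists called lower numbered 9 with the processed ratio, 12 with offset 16, 8 with no filter, 8 with array weights, 1 with the filter on all arrays, and 0 on slide 2 alone, on slide 3 alone or with the brightness covariate. Leaving out each array in turn gave 2 to 4 of the 10 genes lower and 4 to 12 of the ER lists lower (12 without NOD replicate 3, 8 without NOD.B10 replicate 6). Over all genes, 735 were called higher and 709 lower, against 361 and 354 with slide as a fixed term, 1986 and 0 with median centring, 1093 and 313 with the processed ratio, 862 and 265 with Cy5 alone, 38 and 46 on slide 2, 1 and 1 on slide 3, and 3 and 0 with the brightness covariate.

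Signs turned with median centring for Hsp90b1 (0.76), Calr (0.14) and Chac1 (0.25), with Cy5 alone for Calr (0.017) and with the brightness covariate for Dnajb9 (0.034). The cause of these turns was not tested. Relative to insulin, signs turned for Hspa5 (2.43), Hsp90b1 (2.25), Calr (2.27), Dnajb9 (1.83) and Chac1 (1.89). There the turn follows from the scale, since the insulin level, with a mean difference of -2.55, was subtracted from every gene. Of the genes that were not called, Hspa5 turned positive with median centring (0.43), slide as a fixed term (0.14), slide 2 alone (0.94), the brightness covariate (0.58) and without NOD replicate 1 (0.08). Herpud1, near 0 as reported, lay between -0.26 with offset 16 and 2.56 relative to insulin. With the replicate number as a block, which did not pair the mice, 2 of the 10 genes were called lower (Calr had an adjusted p of 0.0962 in limma), as were 597 of all genes, with 638 higher. Genes of the ER lists called were 3 higher and 4 lower under that block.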
